A study of Mus musculus with 2 samples.

Results

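Inflammatory macrophages carrying *Inhba*, *Cxcl3*, *Thbs1* and *Il1a* transcripts were examined in the single-cell RNA sequencing of CT26 tumors from untreated (UT) and BUP-treated mice. Members were selected on measured transcripts, cell by cell. P10k is the unique molecular identifiers (UMIs) of a gene per 10000 UMIs of its cell. A member had a summed P10k of the 4 genes of at least 5, *Lyz2* at 20 or more, *C1qa*, *C1qb* and *C1qc* together under 15, and *S100a8* with *S100a9* under 100. It also had at most 1 UMI of *Cd3d*, *Cd3e* and *Cd3g*, and *Rsad2*, *Cmpk2*, *Ifit1* and *Ifit2* together under 10. This gave 1726 members among 13939 kept cells, 1080 of 7163 in UT and 646 of 6776 in BUP-treated tumors.

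Tumors came from the CT26 line of mouse colon carcinoma, injected under the skin of male BALB/c mice aged 6 to 8 weeks. UT mice received nothing, not an empty gel, and BUP-treated mice received BUP-Gel, a hydrogel holding 40 mg/kg of the local anesthetic bupivacaine. Cells of 3 tumors were pooled into 1 library per group, so no test between groups was possible and single mice cannot be told apart. Sorted CD45+ and CD45- cells were mixed at 3 to 1 according to the methods and at 4 to 1 according to the sample labels. The libraries held 83228442 and 89918925 UMIs, and 76 barcodes occurred in both. Intervals are given at 95% and describe the counting of UMIs or cells alone. They say nothing of the spread between mice or library preparations.

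Macrophages in tumors arise largely from blood monocytes and take on different programs there. An inflammatory program is driven by NF-kB and AP-1 factors and yields interleukin 1, prostaglandins and CXC chemokines that call in neutrophils. *Inhba* encodes the subunit of activin A, a TGF-beta family ligand. *Cxcl3* is a ligand of the neutrophil receptor CXCR2, *Thbs1* encodes the matrix protein thrombospondin 1, and *Il1a* encodes the alarmin interleukin 1 alpha. *Mmp12* encodes macrophage elastase, and it was used as a marker but not by the rule.

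These 5 genes lie on 4 chromosomes in GRCm39. *Inhba* spans chr13:16186373-16206206, *Thbs1* chr2:117941974-117957616, *Il1a* chr2:129140291-129152098, *Cxcl3* chr5:90933962-90937459 and *Mmp12* chr9:7344381-7369499. *Cxcl3* sits in a cluster of CXC chemokine genes in which *Cxcl5* starts at 90907186, *Ppbp* at 90916371, *Pf4* at 90918479, *Cxcl1* at 91039094 and *Cxcl2* at 91051730. The interferon-induced *Cxcl9*, *Cxcl10* and *Cxcl11* lie further along the same chromosome, from 92469206 to 92513344. *Mmp13*, *Mmp12* and *Mmp8* are neighbors on chromosome 9, starting at 7272514, 7344381 and 7558457.

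The 250 bases before the start of the canonical transcript are shown for the marker genes whose window overlaps no annotated exon, because these are the marker genes of the members. The sequences were read 5′ to 3′ on the gene's strand from GRCm39, the C57BL/6J reference, whereas the mice were BALB/c. Capitals mark matches, on either strand, to an NF-kB motif (GGG, any 2 bases, then TTTCC) or an AP-1 motif (TGANTCA).
*Cxcl3* (chr5:90933712-90933961, plus strand): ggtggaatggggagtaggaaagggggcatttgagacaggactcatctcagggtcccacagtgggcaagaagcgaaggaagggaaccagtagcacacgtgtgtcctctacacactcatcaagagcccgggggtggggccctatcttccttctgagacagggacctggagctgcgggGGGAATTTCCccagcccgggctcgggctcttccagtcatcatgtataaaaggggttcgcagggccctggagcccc
*Mmp12* (chr9:7347124-7347373, plus strand): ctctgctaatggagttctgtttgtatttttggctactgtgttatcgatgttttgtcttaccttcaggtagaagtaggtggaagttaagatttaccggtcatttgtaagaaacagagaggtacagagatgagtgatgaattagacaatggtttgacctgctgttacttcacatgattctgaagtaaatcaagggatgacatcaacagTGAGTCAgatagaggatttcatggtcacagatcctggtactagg
*Il1a* (chr2:129152099-129152348, minus strand): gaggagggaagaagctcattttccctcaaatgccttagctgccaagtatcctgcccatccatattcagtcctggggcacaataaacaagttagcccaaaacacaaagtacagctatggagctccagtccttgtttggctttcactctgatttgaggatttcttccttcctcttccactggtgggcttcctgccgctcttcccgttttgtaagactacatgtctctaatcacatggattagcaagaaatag
*Inhba* (chr13:16188733-16188982, plus strand): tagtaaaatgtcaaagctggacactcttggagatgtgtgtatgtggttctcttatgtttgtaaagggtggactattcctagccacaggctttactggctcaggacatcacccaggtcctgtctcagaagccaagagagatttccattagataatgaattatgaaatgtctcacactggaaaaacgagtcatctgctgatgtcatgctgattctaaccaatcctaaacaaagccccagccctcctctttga
*Cxcl3* held 1 NF-kB match, which began 75 bases before its start, and *Mmp12* held 1 AP-1 match at 44 bases. The windows of *Il1a* and *Inhba* held neither, and none of the 4 held a C/EBP match (TTGCNNAA). *Thbs1*, whose window overlaps annotated exons and is not printed, held 2 AP-1 matches. Among 21751 protein-coding promoters of this length, 1.47% held the NF-kB, 6.17% the AP-1 and 9.34% the C/EBP motif. A match is a description of letters and not evidence of binding.

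The lineage label was checked against other markers, given as counts per 1000000 UMIs summed over the cells of a set (CPM). *Lyz2*, on which cells were selected, stood at 15785 CPM in UT and 14735 in BUP-treated members. *Cd14*, the lipopolysaccharide co-receptor, stood at 2004 and 2312 CPM and was seen in 96.2% and 96.7% of members. *Itgam*, *Cd68* and *Csf1r* (CD11b, a lysosomal protein and the CSF-1 receptor) had a UMI in 94.4%, 87.5% and 82.1% of UT members, and in 96.0%, 89.6% and 81.4% of BUP-treated members. *Adgre1*, which encodes F4/80, was low, with 53.4 CPM in UT and 43.8 in BUP-treated members and 179 and 164 in the *C1q*-high cells described next. Detection alone does not separate the lineage, since all 8 lineage markers on the list also had UMIs in CD8 T cells and in the non-immune set described below.

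Markers of cells outside the macrophage and monocyte lineage were near 0 or low in the members. The 6 T cell markers, 3 of them limited by the rule, summed to 9.43 and 2.92 CPM, against 4331 and 4192 CPM in CD8 T cells. The 4 B cell markers summed to 2.39 and 0.858 CPM, with *Ms4a1* at 0 UMIs. The 7 dendritic cell markers summed to 22.3 and 25.4 CPM, and the 8 tumor and fibroblast markers to 31.1 and 46.4 CPM. The 4 NK cell markers summed to 175 CPM in UT and 75 in BUP-treated members, and the 3 erythroid markers to 88.8 and 325 CPM. The 6 neutrophil markers summed to 912 and 900 CPM, most of it *S100a8* and *S100a9*, which the rule limits. The neutrophil-restricted *Retnlg* stood at 12.2 and 7.90 CPM, against 2552 and 2121 in gated cells high in *S100a8* and *S100a9*. *Mmp8* was less far apart, at 130 and 67.5 CPM in members against 199 and 133 in those cells. It had a UMI in 30.8% and 24.3% of members. Monocyte markers were higher, with the 6 summing to 1431 and 1125 CPM and *Ccr2* seen in 75.4% and 77.4% of members. They summed to 402 and 531 CPM in *C1q*-high cells, and to 1714 and 1369 in cells low in the 4 genes, described below. The 6 mature *C1q* macrophage markers, 3 of them limited by the rule, summed to 1970 and 1513 CPM, against 18202 and 17509 in *C1q*-high cells.

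Member cells were of similar depth in both libraries, with medians of 7086 UMIs in UT and 7597.5 in BUP-treated tumors. The summed P10k of the 4 selecting genes had a median of 27.9 and 30.4, and reached 658 and 731. There were 27 UT members (2.5%) and 8 BUP-treated members (1.24%) that passed the rule on 1 UMI of these genes. Cells just inside the limit of 5 (5 to 7.5) had a median of 6.10 in UT and 6.13 in BUP-treated tumors, and cells just outside (2.5 to 5) had 3.65 and 3.71. The cells just inside held *Mmp12* at 433 CPM in UT and 276 in BUP-treated tumors, and those just outside at 216 and 227 CPM. *Arg1* was alike on both sides of the limit, at 937 and 793 CPM inside and 1014 and 799 CPM outside.

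**Figure D1:**
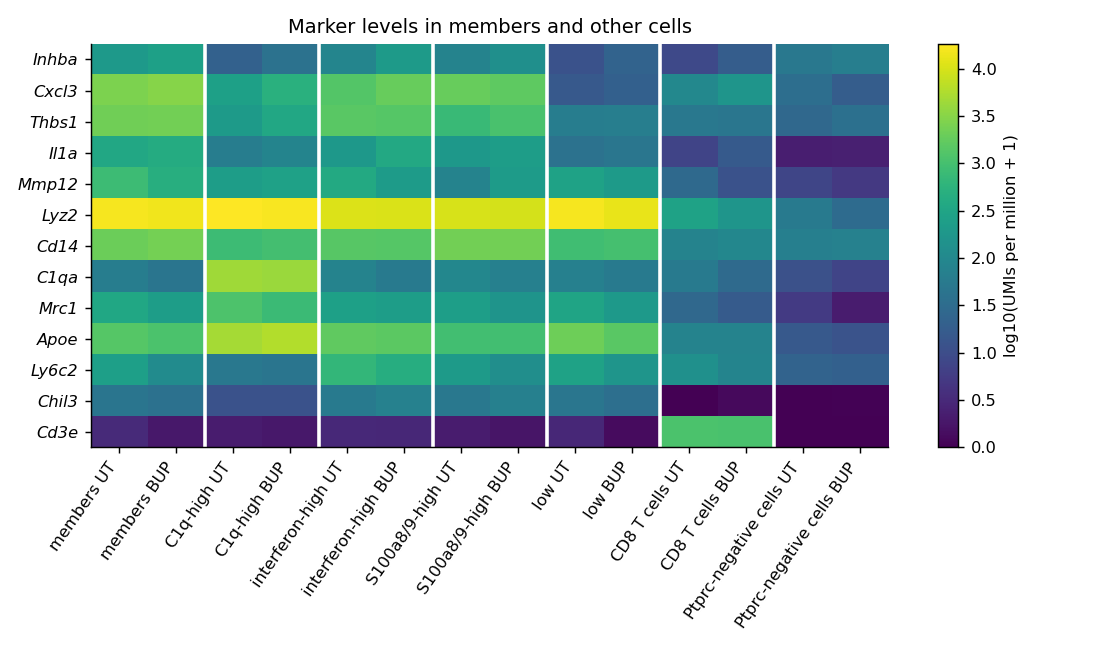
Levels of 13 genes (rows) in 7 cell sets from UT and BUP-treated tumors (columns), as log10 of CPM plus 1. The 4 genes *Inhba*, *Cxcl3*, *Thbs1* and *Il1a* are high in members because members were selected on them, *C1qa* is high in the *C1q*-high cells and *Cd3e* in CD8 T cells.

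The size of the member group was compared first. Members made up 15.1% of kept UT cells (exact binomial interval 14.3 to 15.9) and 9.53% of kept BUP-treated cells (8.84 to 10.3), a difference of -5.54 percentage points (-6.64 to -4.45). Kept cells include the sorted CD45- cells. Cells with at least 5000 UMIs and with no *Ptprc* or *Cd3* UMI and *Lyz2* under 20 P10k, used below as a non-immune set, numbered 971 in UT and 2249 in BUP-treated tumors, and the part of this mixture in the lower share was not tested.

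Within the *Lyz2* gate, the kept cells with *Lyz2* at 20 P10k or more and at most 1 *Cd3* UMI, the order was the other way. Members were 30.8% of 3508 gated UT cells (29.3 to 32.3) and 36.4% of 1774 gated BUP-treated cells (34.2 to 38.7), a difference of 5.63 points (2.90 to 8.38). *C1q*-high cells, the complement-producing macrophages, took 34.1% and 28.6% of the gate. Cells low in the 4 genes took 22.1% and 17.6%, and *S100a8/9*-high cells took 5.39% and 8.40%. Interferon-high cells took 3.76% and 3.38%, a difference of -0.38 points whose interval ran from -1.43 to 0.75. Both libraries thus held members as a large fraction of their *Lyz2*-gated cells, and the direction of the difference depended on the denominator.

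**Figure D2:**
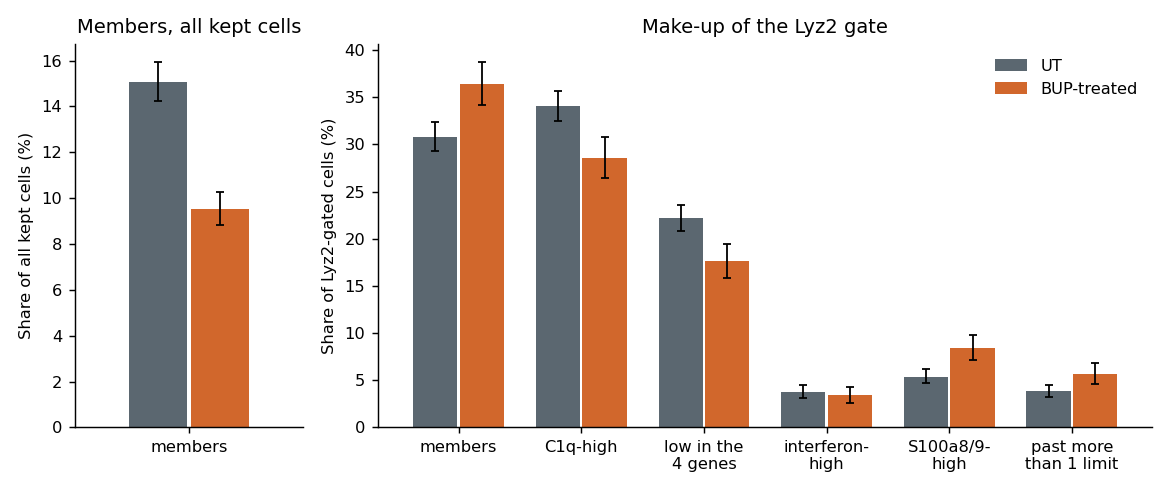
Share of members among all kept cells (left, %) and the make-up of the *Lyz2* gate (right, %), in UT (gray) and BUP-treated (orange) tumors, with exact 95% binomial intervals as bars. Members make up 15.1% and 9.53% of kept cells, and 30.8% and 36.4% of the gate.

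Members were then set against the gated cells most like them, within each library. Of 9715 genes, 2.49% were at least 2-fold higher and 5.61% at least 2-fold lower in members than in *C1q*-high cells in both libraries. *Ppbp*, a platelet and myeloid CXC chemokine, stood at 124 CPM in UT members against 9.54 in *C1q*-high cells, and at 76.4 against 13.1 in BUP-treated tumors. *Itga1*, the collagen-binding integrin alpha 1, stood at 104 against 15.3 CPM and at 93.9 against 16.6. *F10*, the coagulation factor X gene, stood at 539 against 68.5 CPM and at 526 against 107. None of these 3 genes was used by the rule.

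Of the low-oxygen and glycolysis list 4 of 22 genes were at least 2-fold higher than in *C1q*-high cells in both libraries and 0 lower. Of the eicosanoid list 1 of 11 was higher and 2 were lower. *Hilpda*, a lipid droplet gene induced by hypoxia, stood at 685 against 141 CPM in UT and 860 against 172 in BUP-treated tumors. *Egln3*, an oxygen-sensing prolyl hydroxylase, stood at 106 against 15.8 and 72.3 against 14.7 CPM. *Ptgs2*, the inducible cyclooxygenase, stood at 536 against 91.8 and 715 against 168 CPM. *Vcan*, which encodes the matrix proteoglycan versican and is high in monocytes, stood at 540 against 76.7 and 578 against 120 CPM.

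All 5 measured neutrophil-recruiting chemokines (*Cxcl1*, *Cxcl2*, *Cxcl3*, *Cxcl5*, *Ppbp*) were at least 2-fold higher in members than in *C1q*-high cells in both libraries, *Cxcl3* being a selecting gene. So were 6 of 11 inflammatory cytokines, 10 of 20 matrix and protease genes and 7 of 14 monocyte genes. The cytokine count includes *Il1a* and the matrix count includes *Thbs1*, both selecting genes whose excess follows from the rule. In the other direction, 9 of 14 tissue-resident macrophage genes and 11 of 12 cell cycle genes were at least 2-fold lower. *Siglec1*, a lectin of resident macrophages, stood at 4.55 against 137 CPM in UT and 2.40 against 96.7 in BUP-treated tumors. *Folr2* stood at 18.2 against 189 and 6.18 against 118 CPM, and *Ccl8*, a monocyte-attracting chemokine, at 75.7 against 1344.5 in UT.

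Against the cells low in the 4 genes, fewer genes differed, with 1.16% of 8392 at least 2-fold higher and 1.00% at least 2-fold lower in both libraries. *Slpi*, an antiprotease, stood at 572 against 140 CPM in UT and 892 against 177 in BUP-treated tumors. *Arg1*, which breaks down arginine, stood at 2279 against 706 and 1915 against 533 CPM. *Met*, the hepatocyte growth factor receptor, stood at 93.6 against 27.1 and 138 against 33.9 CPM. MHC class II was the main group on the lower side, with 5 of 8 genes at least 2-fold lower, among them *H2-Aa* at 1227 against 3165 and 1264 against 2871 CPM. The low cells held no large excess of resident genes, as 0 of 10 tissue-resident genes were 2-fold apart in 1 direction in both libraries.

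Against the interferon-high cells, which the rule separates by *Rsad2*, *Cmpk2*, *Ifit1* and *Ifit2*, the antiviral genes were lower as selected and are not a finding. Among other genes *Mmp12* stood at 829 against 391 CPM in UT and 460 against 216 in BUP-treated tumors. *Cxcl14* stood at 72.3 against 8.29 and 185 against 54.9 CPM. *Spp1*, which encodes osteopontin, stood at 4243 against 2432 and 6524 against 3171 CPM.

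The members were not uniform. Each library was cut into quartiles by the summed P10k of the 4 genes, with 270 cells per quartile in UT and 161 or 162 in BUP-treated tumors. Median depth per quartile ran from 7023.5 to 7187 UMIs in UT and from 7163 to 8421 in BUP-treated tumors. The median P10k went from 8.16 in the lowest to 125 in the highest quartile of UT members and from 8.30 to 135 in BUP-treated members, which is how the quartiles were made. The values of other genes along this order are a description within each library.

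Low-oxygen and glycolysis genes followed the order. All 22 measured genes of that list were higher in the highest than in the lowest quartile in both libraries, against 1595 of all 6900 genes, with list medians of 0.58 and 0.42 on the log2 scale. The 4 measured neutrophil-recruiting genes outside the rule and the 4 angiogenic and EGF-family genes were all higher there too. *Hilpda* went through 313, 490, 657 and 1342 CPM from the lowest to the highest quartile in UT and 408, 578, 1004 and 1557 CPM in BUP-treated members. *Bnip3*, a mitophagy gene induced by hypoxia, went from 245 to 641 and from 190 to 498 CPM. *Slc2a1*, the glucose transporter GLUT1, went from 319 to 674 and from 279 to 468 CPM.

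*Arg1* went through 1085, 1422, 2166 and 4662 CPM in UT and 833, 1220, 1865 and 4010 CPM in BUP-treated members. *Vegfa*, the vascular growth factor, went from 268 to 794 and from 284 to 832 CPM. *Ptgs2* went from 285 to 937 and from 363 to 1328 CPM, and *Ppbp* from 32.6 to 284 and from 3.10 to 190 CPM. *Nos2*, the inducible nitric oxide synthase, went from 36.6 to 139 and from 21.1 to 115 CPM. *Arg1* and *Nos2*, commonly used as opposite markers of macrophage activation, were thus both highest in the cells richest in the 4 genes.

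Antigen presentation ran the other way. All 7 measured MHC class II genes were lower in the highest quartile in both libraries, against 3384 of 6900 genes. *H2-Aa* went through 2291, 1518, 715 and 313 CPM in UT and 1800, 1343, 1081 and 727 CPM in BUP-treated members. *Cd74*, the invariant chain, went from 5535 to 1370 and from 4951 to 2065 CPM. Type I interferon genes were lower in the highest quartile for 19 of 23, and *Ly6c2*, a monocyte surface antigen, went from 358 to 136 and from 130 to 81.0 CPM. Some inflammatory genes showed no such order, as *Tnf* stood at 525, 614, 487 and 504 CPM along the UT quartiles.

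**Figure D3:**
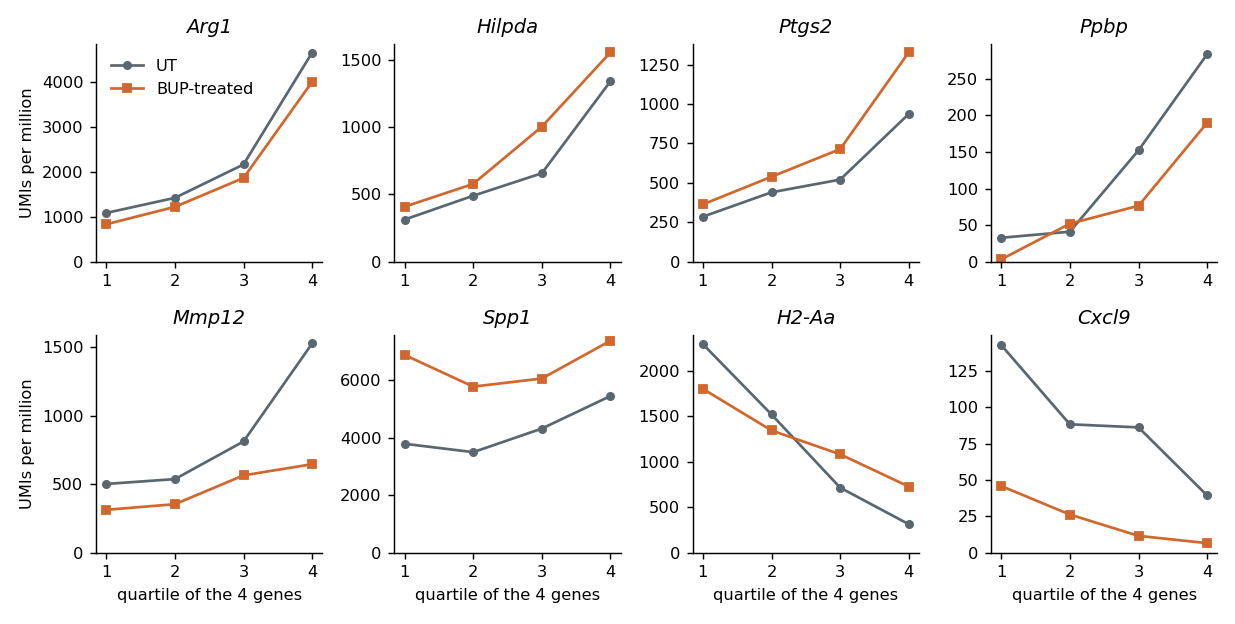
CPM of 8 genes (vertical axes, from 0) by quartile of the summed *Inhba*, *Cxcl3*, *Thbs1* and *Il1a* signal (horizontal axes), in UT (gray circles) and BUP-treated (orange squares) members. *Arg1*, *Hilpda*, *Ptgs2* and *Ppbp* are highest in the highest quartile and *H2-Aa* and *Cxcl9* are lowest there, in both libraries.

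The 4 selecting genes were seen together in a minority of members. All 4 had a UMI in 131 of 1080 UT members (12.1%) and 133 of 646 BUP-treated members (20.6%). After each cell was thinned to 2000 UMIs, leaving out 86 and 38 shallower members, these shares were 5.03% and 7.73%. *Thbs1* was the most widespread, with a UMI in 84.3% and 85.3% of members. *Cxcl3* followed with 54.5% and 61.5%, *Il1a* with 52.7% and 60.8%, and *Inhba* with 33.4% and 43.8%. In CD8 T cells, which should lack them and had medians of 7985 and 7642.5 UMIs, these 4 genes had a UMI in 2.23% to 6.90% of UT and 2.76% to 5.52% of BUP-treated cells. The thinned share of *Inhba* was 19.8% (17.4 to 22.4) in UT and 24.8% (21.4 to 28.5) in BUP-treated members, so the intervals overlapped.

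BUP-treated and UT members were then compared gene by gene. The sums held 8799757 UMIs in UT and 5825241 in BUP-treated members, and 6900 genes had at least 200 UMIs over both libraries. Of these, 84 were at least 1.5-fold higher in BUP-treated members (1.22%) and 149 at least 1.5-fold lower (2.16%), and the median log2 ratio of BUP-treated over UT was -0.06. The 5th and the 95th percentile of these ratios lay at -0.45 and 0.34. Scaling by the median ratio in place of the total gave 114 genes higher and 100 lower. Counting intervals of strongly expressed genes are narrow, and an interval away from 0 does not show a difference between groups of mice.

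The 4 selecting genes were close in level, with the caveat that the rule sets a floor on their sum. *Thbs1* stood at 2175 CPM in UT and 2246 in BUP-treated members, a log2 ratio of 0.05 (0.01 to 0.08). *Cxcl3* stood at 2669 and 3019 CPM (0.18, 0.15 to 0.21), *Il1a* at 364 and 420 CPM (0.20, 0.13 to 0.28), and *Inhba* at 197 and 268 CPM (0.45, 0.35 to 0.55). None passed 1.5-fold. In *C1q*-high cells, where no floor applied, *Inhba* stood at 19.9 and 39.1 CPM (0.98, 0.74 to 1.21), *Cxcl3* at 268 and 500 CPM (0.90) and *Thbs1* at 212 and 360 CPM (0.76).

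*Mmp12*, the marker outside the rule, differed most of the 5 markers. It had 829 CPM in UT members and 460 in BUP-treated members, a log2 ratio of -0.85 (-0.91 to -0.78). *Mmp12* had a UMI in 36% of the UT members and 35.1% of the BUP-treated ones, and in 28.3% and 24.7% after thinning, so the gap lay more in the level than in the share of cells. The 5 cells with most *Mmp12* UMIs held 16.3% and 19.3% of them, and the log2 ratio was -0.90 without those cells. In *C1q*-high cells *Mmp12* stood at 236 and 269 CPM, a ratio of 0.19 (0.11 to 0.27), the opposite direction. It was also higher in BUP-treated cells high in *S100a8* and *S100a9*, with a ratio of 1.47. *Mmp12* was lower in BUP-treated interferon-high cells (-0.86), cells low in the selecting genes (-0.44), CD8 T cells (-1.36) and the non-immune set (-0.75). The lower level was thus not particular to members.

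Of the other metalloproteases measured, 3 were at least 1.5-fold lower. *Mmp9*, gelatinase B, stood at 141 and 52.5 CPM (-1.43, -1.61 to -1.25). *Mmp13*, collagenase 3, stood at 195 and 86.0 CPM (-1.18, -1.33 to -1.04). *Mmp8*, neutrophil collagenase, stood at 130 and 67.5 CPM (-0.95, -1.12 to -0.78). The 5 richest cells held 25.7% and 32.4% of *Mmp9* and 26.1% and 28.1% of *Mmp13* UMIs. Without them the log2 ratios were -1.56 and -1.22. For *Mmp9* the ratio was -1.37 in cells low in the 4 genes, -1.03 in interferon-high, -0.52 in *S100a8/9*-high and -0.38 in *C1q*-high cells. For *Mmp13* these were -0.86, 0.69, 0.65 and 0.07. *Mmp14* and *Mmp19*, a membrane-bound and a secreted member of the same family, stood at 230 and 239 CPM and at 82.5 and 80.3 CPM. The secreted proteases *Plau*, urokinase, and *F10* had ratios of 0.09 and -0.04. The 4 markers of osteoclast-like cells summed to 188 CPM in UT and 77.8 in BUP-treated members, most of it *Mmp9* itself. *Ctsk*, an osteoclast protease, stood at 29.4 and 6.35 CPM but had a UMI in 2.78% and 3.87% of members. *Acp5* went the other way, at 14.5 and 17.2 CPM, and *Atp6v0d2* stood at 2.61 and 1.72 CPM. The part of osteoclast-like cells in the lower protease levels was not tested.

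Among the 19 measured matrix, protease and adhesion genes, 3 were at least 1.5-fold higher, 4 at least 1.5-fold lower, and the median was -0.04. *Spp1* stood at 4243 and 6524 CPM (0.62, 0.60 to 0.64). *Timp1*, a metalloprotease inhibitor, stood at 37.8 and 59.6 CPM (0.65, 0.43 to 0.88), and *F3*, tissue factor, at 11.6 and 20.4 CPM (0.82, 0.42 to 1.21). *Fn1*, fibronectin, stood at 1764 and 2524 CPM (0.52, 0.48 to 0.55), short of 1.5-fold. CD8 T cells held *Spp1* at 2301 and 2393 CPM and 90.6% and 88.3% of them had a UMI, so its share of members with a UMI is not read as expression. The log2 ratio of *Spp1* was 0.06 in those CD8 T cells, -0.14 in the non-immune set, 0.04 in *C1q*-high cells and 0.86 in cells low in the 4 genes.

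Chemokines went in both directions. Of 5 neutrophil-recruiting genes, *Cxcl1* was at least 1.5-fold higher and *Cxcl5* and *Ppbp* at least 1.5-fold lower, with a list median of 0.18. *Cxcl2* was the most abundant chemokine by UMI count, at 11895 CPM in UT and 15496 in BUP-treated members (0.38, 0.37 to 0.39). *Cxcl1* stood at 1568 and 2364 CPM (0.59, 0.56 to 0.63), and it was also higher in BUP-treated CD8 T cells (84.4 and 194 CPM) and non-immune cells (467 and 799 CPM). *Cxcl5* stood at 25.3 and 6.18 CPM (-2.04, -2.59 to -1.52), with 57.4% and 61.1% of its UMIs in 5 cells, and *Ppbp* at 124 and 76.4 CPM (-0.70). *Cxcl1*, *Cxcl2* and *Cxcl3* are close copies of each other, so reads could be divided between them in counting.

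The 4 T cell-recruiting CXC chemokines, ligands of CXCR3 or, for *Cxcl16*, CXCR6, all had ratios below 0, with a median of -0.71 and 2 at least 1.5-fold lower. *Cxcl9* stood at 90.6 and 23.7 CPM (-1.93, -2.21 to -1.67), with 29.5% and 42.8% of its UMIs in 5 cells. *Cxcl11* stood at 62.0 and 34.3 CPM (-0.85, -1.09 to -0.62), *Cxcl10* at 213 and 143 CPM (-0.57) and *Cxcl16* at 185 and 149 CPM (-0.31). In *C1q*-high cells *Cxcl9* had a ratio of -0.40 and in cells low in the 4 genes of -0.10. Its ratio was -2.18 in interferon-high cells, further from 0 than in members, and -1.10 in *S100a8/9*-high cells. In CD8 T cells and the non-immune set it was above 0, at 0.59 and 1.16.

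Of 10 CC chemokines, 2 were at least 1.5-fold higher and 1 at least 1.5-fold lower, around a median of 0.01. *Ccl4*, an attractant of monocytes and T cells, stood at 1598 and 2596 CPM (0.70, 0.67 to 0.73). *Ccl24*, an eosinophil attractant made by alternatively activated macrophages, stood at 313 and 563 CPM (0.85, 0.77 to 0.92), and 39.4% and 48.1% of members had a UMI. In CD8 T cells *Ccl24* had a UMI in 1.78% and 2.49%. The *Ccl24* ratio was 0.91 in *C1q*-high cells, 0.96 in cells low in the 4 genes and 1.47 in *S100a8/9*-high cells. It was 0.05 in interferon-high cells and -2.53 in the non-immune set. *Ccl8* stood at 75.7 and 22.5 CPM (-1.75, -2.03 to -1.48), and its UMIs were seen in 22.7% and 11.3% of members and in 21.2% and 8.29% of CD8 T cells, so this share is close to that in T cells and is not read as expression. *Ccl2*, *Ccl6* and *Ccl7*, monocyte attractants, had ratios of -0.07, -0.06 and -0.05.

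*Cxcl14*, a chemokine outside these lists, was among the 8 largest ratios. It stood at 72.3 CPM in UT and 185 in BUP-treated members, a log2 ratio of 1.35. It had a UMI in 16.2% of the UT members and 35.4% of the BUP-treated ones, and in 8.85% (7.16 to 10.8) and 21.5% (18.3 to 25) after thinning, so the intervals did not overlap. CD8 T cells held *Cxcl14* at 4.31 and 3.89 CPM. The non-immune set held it at 12.0 and 82.2 CPM, a log2 ratio of 2.78, and the part of RNA from such cells in the level of members was not tested. The *Cxcl14* ratio was 0.28 in *C1q*-high cells and 1.61 in cells low in the 4 genes.

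EGF-family ligands were higher. Of the 4 measured angiogenic and EGF-family genes, 3 were at least 1.5-fold higher and the median was 0.67. *Areg*, which encodes amphiregulin, stood at 21.4 and 94.8 CPM (2.15, 1.91 to 2.40), with a UMI in 4.72% and 10.7% of members. The 5 cells richest in *Areg* held 44.2% and 30.3% of its UMIs, and the log2 ratio was 2.47 without them. CD8 T cells held *Areg* at 36.1 and 63.7 CPM and had a UMI in 11.1% and 17.0%, more often than members, so the share of members with *Areg* is not read as expression. *Ereg*, epiregulin, stood at 46.5 and 77.2 CPM (0.73, 0.54 to 0.93), *Hbegf* at 55.7 and 84.6 CPM (0.60, 0.42 to 0.79), and *Vegfa* at 456 and 504 CPM (0.14).

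Cytokines of the inflammatory program were close. Among 9 measured inflammatory cytokines 1 was at least 1.5-fold higher and none lower, with a median of 0.12. *Il1b* stood at 2439 and 2659 CPM (0.12, 0.09 to 0.15), *Tnf* at 532 and 638 CPM (0.26, 0.20 to 0.32) and *Il1rn*, the interleukin 1 receptor antagonist, at 524 and 590 CPM (0.17). *Il6* stood at 11.7 and 18.2 CPM (0.64, 0.23 to 1.04), with 28.2% and 36.8% of its UMIs in 5 cells. Without those cells its log2 ratio was 0.45, short of 1.5-fold. *Il18* stood at 45.8 and 30.7 CPM (-0.58). None of 16 NF-kB factors and feedback genes passed 1.5-fold, and *Nfkb1* had the largest ratio, at 151 and 197 CPM (0.38).

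In the activin and TGF-beta pathway 1 of 14 measured genes was at least 1.5-fold higher and none lower, with a median of 0.10. The gene was *Bambi*, a decoy receptor, at 12.7 and 20.1 CPM (0.66, 0.27 to 1.04). The 5 cells richest in *Bambi* held 19.6% and 30.8% of its UMIs. Without them the log2 ratio was 0.44, short of 1.5-fold. *Fst*, which encodes the activin inhibitor follistatin, stood at 21.9 and 29.5 CPM (0.43, 0.12 to 0.73), and *Smad7*, an inhibitory SMAD, at 40.1 and 50.8 CPM (0.34). The receptors *Acvr2a* and *Tgfbr2* had ratios of -0.29 and -0.32. The ligand *Inhba* and these 3 inhibitors thus had ratios above 0, of which *Bambi* passed 1.5-fold only with its 5 richest cells included.

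Of the eicosanoid genes, 1 of 9 was at least 1.5-fold higher, *Ptgs1*, the constitutive cyclooxygenase, at 13.6 and 22.5 CPM (0.72). The 5 cells richest in *Ptgs1* held 24.2% and 35.1% of its UMIs. Without them its log2 ratio was 0.50, short of 1.5-fold. *Ptgs2* stood at 536 and 715 CPM (0.42, 0.36 to 0.48). None of 22 low-oxygen and glycolysis genes passed 1.5-fold, around a median of -0.08, with *Hilpda* at 0.33 and *Egln3* at -0.56 as the extremes. In the oxidative stress and iron list 2 of 11 genes were at least 1.5-fold higher, both metallothioneins. *Mt1* stood at 443 and 751 CPM (0.76, 0.70 to 0.82) and *Mt2* at 27.8 and 67.6 CPM (1.28, 1.05 to 1.52). The 5 cells richest in *Mt2* held 22.0% and 36.8% of its UMIs, and its log2 ratio was 0.98 without them. *Mt1* was also higher in BUP-treated *C1q*-high cells, with a ratio of 0.50, and in CD8 T cells, with 0.66. The non-immune set held *Mt1* at 1155 and 1532 CPM and *Mt2* at 563 and 700 CPM. The part of RNA from such cells in the levels of members was not tested.

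In its single-cell data the study compared *Tnf*, *Cd86*, *Arg1* and *Mrc1* between UT and BUP-treated cells, cluster by cluster. In some myeloid clusters it reported higher *Tnf* and *Cd86* and lower *Arg1* and *Mrc1* after BUP-Gel. Those clusters are not the member set. *Nos2* was used there to describe clusters. By flow cytometry the study reported more macrophages with iNOS, the *Nos2* protein, and slightly fewer with ARG1 after BUP-Gel. It also reported higher *Nos2* and lower *Arg1* RNA in cultured macrophages given medium from bupivacaine-treated neuroblast cells, compared with medium from untreated ones. Both differ in measure or cells from the member RNA given here. In members *Cd86*, a costimulatory ligand, stood at 417 and 445 CPM (0.09, 0.02 to 0.17). *Arg1* stood at 2279 and 1915 CPM (-0.25, -0.28 to -0.22) and *Mrc1*, the mannose receptor CD206, at 344 and 238 CPM (-0.53, -0.62 to -0.44). *Nos2* stood at 65.8 and 44.6 CPM (-0.56, -0.78 to -0.35). None of these 5 genes passed 1.5-fold in members. In *C1q*-high cells *Arg1* had a ratio of -0.61 and *Nos2* of -0.73.

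Interferon-induced genes were lower on the whole. Of 13 interferon gamma response genes 5 were at least 1.5-fold lower and none higher, with a median of -0.50 against -0.06 for all genes. *Gbp2*, *Gbp4* and *Gbp7*, guanylate-binding proteins of cell-autonomous defense, stood at 266 and 173, 165 and 104, and 122 and 79.5 CPM. *Iigp1*, an immunity-related GTPase, stood at 26.4 and 12.0 CPM (-1.13, -1.54 to -0.74), and *Igtp* at 55.1 and 34.3 CPM (-0.68). *Socs3*, a feedback inhibitor of cytokine signaling, was the exception at 509 and 557 CPM (0.13). The list median was -0.20 in *C1q*-high cells and -0.56 in cells low in the 4 genes.

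Of 23 type I interferon response genes, 2 were at least 1.5-fold lower and none higher, with a median of -0.30. The rule removed cells high in 4 genes of this response, so high expressers had been taken out of both libraries. *Mx1* stood at 17.6 and 10.8 CPM (-0.70) and *Ifi44* at 53.3 and 35 CPM (-0.61), whereas *Isg15* stood at 216 and 237 CPM (0.14). Of 10 MHC class I genes none passed 1.5-fold, all had ratios below 0 and the median was -0.24, with the peptide transporter gene *Tap1* at 160 and 111 CPM (-0.52). MHC class II was close, with a median of -0.05, *H2-Aa* at 1227 and 1264 CPM and *Cd74* at 3360 and 3532 CPM.

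Genes of resident macrophages had ratios below 0. Of the 8 measured tissue-resident genes all 8 lay there, 3 of them at least 1.5-fold lower, and the median was -0.52. *Ms4a7* stood at 85.1 and 45.5 CPM (-0.90, -1.11 to -0.70), *Pf4* at 1310 and 783 CPM (-0.74, -0.79 to -0.69) and *Selenop* at 96.4 and 60.1 CPM (-0.68). *C1qa*, limited by the rule, stood at 63.9 and 43.6 CPM, and 34.1% and 28.6% of the *Lyz2* gate was *C1q*-high. The part of RNA from those cells in the lower levels was not tested.

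Monocyte genes were mixed. Of 12 measured, 2 were at least 1.5-fold lower and none higher, 4 lay above the median of all genes, and the list median was -0.27. *Ly6c2* stood at 251 and 112 CPM (-1.17, -1.30 to -1.04) and *Ly6c1*, a near-identical copy with which it may share reads, at 360 and 225 CPM (-0.68). A UMI of *Ly6c2* was seen in 45.5% and 31.9% of members, and in 39.4% and 30.7% of CD8 T cells, which express it themselves. *Ccr2*, the receptor that draws monocytes into tissue, stood at 478 and 451 CPM (-0.08), and *Vcan* at 540 and 578 CPM (0.10).

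Immediate early genes, which also respond to tissue digestion, were mostly lower. Of 20 immediate early and heat shock genes 2 were at least 1.5-fold higher and 1 lower, with a median of -0.28. *Fos* stood at 4173 and 2823 CPM (-0.56), *Dusp1* at 2998 and 2047 CPM (-0.55) and *Klf2* at 564 and 345 CPM (-0.71, -0.78 to -0.63). The heat shock genes *Hspa1a* and *Hspa1b* stood at 31.9 and 58.5 CPM (0.87) and at 8.86 and 25.4 CPM (1.52), the latter with 55.1% and 55.4% of its UMIs in 5 cells. The part of sample handling in these values was not tested. Median mitochondrial shares of members were 2.30% and 2.05%.

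The remaining lists stayed near the whole. None of 11 arginine and polyamine, 15 lipid-handling, 9 checkpoint and costimulatory or 4 cell cycle genes passed 1.5-fold, with medians of 0.05, -0.04, -0.09 and -0.26. *Cd9*, a tetraspanin of lipid-associated macrophages, stood at 672 and 896 CPM (0.41), and *Tnfsf9*, the ligand of 4-1BB, at 65.2 and 92.5 CPM (0.50). The other genes with large ratios were *Gadd45b*, a stress response gene, at 195 and 329 CPM (0.75), and *Snrpf*, a splicing gene, at 73.9 and 121 CPM (0.71). Neither was particular to members, as the ratios were 0.99 and 0.50 in *C1q*-high cells. They were 0.75 and 0.65 in cells low in the 4 genes, and 0.76 and 0.16 in CD8 T cells.

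**Figure D4:**
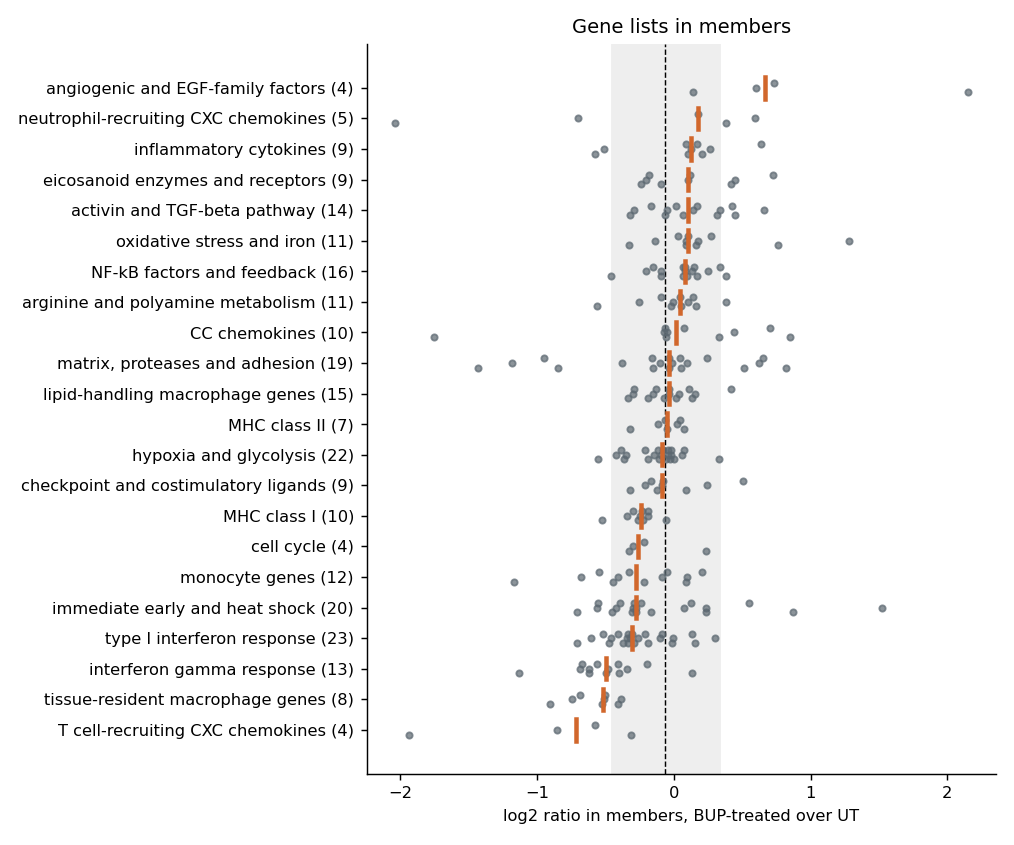
Log2 ratios of BUP-treated over UT members (horizontal axis) for the measured genes of 22 lists, with the number measured in parentheses. Points are genes, orange bars list medians, the dashed line the median of all 6900 genes (-0.06) and the gray band the 5th to 95th percentile; T cell-recruiting chemokines (-0.71), tissue-resident genes (-0.52) and interferon gamma genes (-0.50) have the lowest medians.

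For several of the largest ratios a handful of cells held most UMIs. *Gzmf*, a granzyme of cytotoxic lymphocytes, stood at 256 and 9.96 CPM (-4.69), but 5 of 1080 UT members held 90.3% of its UMIs there. Likewise 5 cells held 82.9% of *Gzmd*, 69.4% of *Gzmc* and 57.8% of *Gzma* UMIs in UT members. In BUP-treated members 5 cells held 36.2% of *Gzmf*, 41.3% of *Gzmd*, 89.0% of *Gzmc* and 81.25% of *Gzma* UMIs. With all cells the log2 ratios were -3.62 for *Gzmd*, -1.86 for *Gzmc* and -1.19 for *Gzma*. Without the 5 richest cells of each gene the log2 ratios were -1.98 for *Gzmf*, -1.83 for *Gzmd*, -3.33 for *Gzmc* and -2.36 for *Gzma*, still below 0. *Gzmf* had a UMI in 14.3% of UT and 5.73% of BUP-treated members, and it stood at 2695 and 2567 CPM in CD8 T cells. *G0s2*, an inhibitor of fat breakdown that neutrophils carry in quantity, stood at 172 and 57.9 CPM (-1.57), with 23.5% and 37.7% in 5 cells.

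Hemoglobin genes had ratios of 1.75 for *Hbb-bs*, 2.13 for *Hba-a1* and 2.25 for *Hba-a2*. In BUP-treated members 5 cells held 98.7%, 98.7% and 99.2% of these UMIs. *Hba-a1* and *Hba-a2* are near-identical copies, so their reads may be divided arbitrarily. Without the 5 richest cells of each gene the log2 ratio was -0.87 for *Hbb-bs*, 0.15 for *Hba-a1* and -0.40 for *Hba-a2*, so the higher hemoglobin values rested on those cells.

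**Figure D5:**
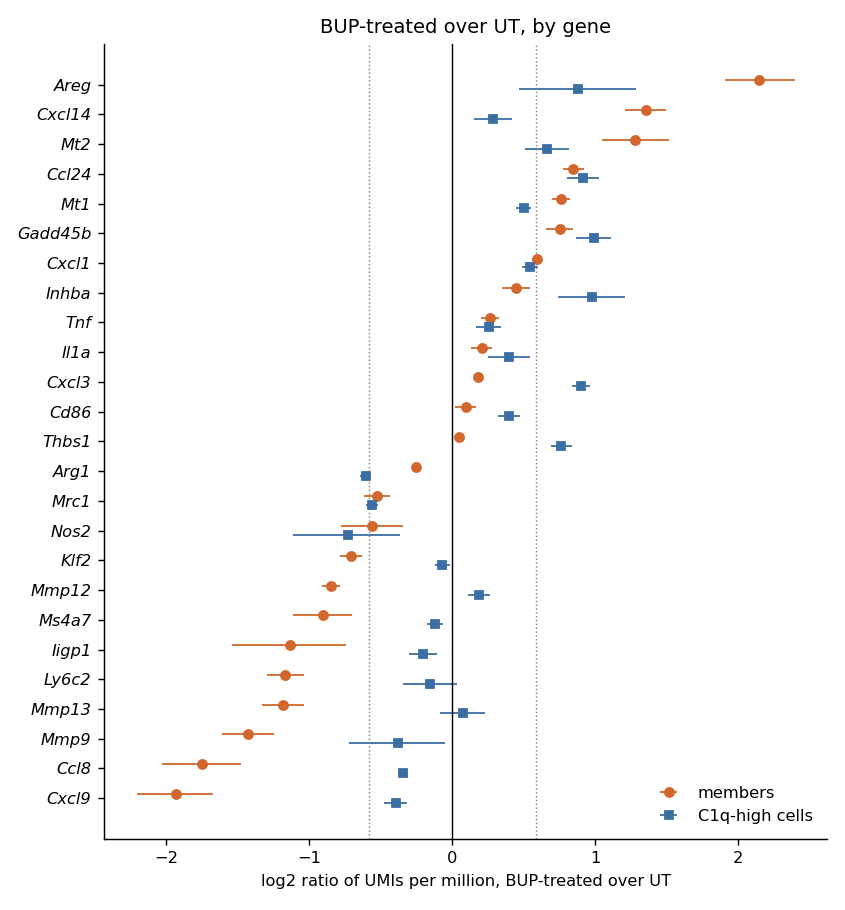
Log2 ratios of CPM, BUP-treated over UT (horizontal axis), of 25 genes in members (orange circles) and in *C1q*-high cells (blue squares), with 95% counting intervals as bars and dotted lines at 1.5-fold. *Areg*, *Cxcl14* and *Mt2* have the largest and *Cxcl9*, *Ccl8* and *Mmp9* the smallest ratios shown in members, while *Mmp12* lies at -0.85 in members and 0.19 in *C1q*-high cells.

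The study concerns acetylcholine and a blocker of sodium channels, so both gene families were read in the members. None of 23 acetylcholine receptor and enzyme genes and none of 13 sodium channel genes reached 200 UMIs. *Chrna7* and *Chrm5* had 0 UMIs, which allows a share of cells with a UMI of up to 0.278% of 1080 UT and 0.464% of 646 BUP-treated members. *Chrm3*, a muscarinic receptor, had a UMI in 18 UT members (1.67%) and 4 BUP-treated members (0.619%), against 0.223% and 0.414% of CD8 T cells. In UT *C1q*-high cells the share was 2.51%. After thinning it was 0.503% of UT members and 0.362% of UT *C1q*-high cells. The study reported CHRM3, CHRM5 and CHRNA7 protein in macrophages of CT26 tumors by flow cytometry, a different measure from RNA. Receptor transcripts were at this depth too few to compare between UT and BUP-treated members.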

How the data were processed

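Single-cell RNA was read in 2 libraries, 1 UT and 1 BUP-treated, each pooled from 3 tumors. The authors counted UMIs per gene and barcode with Cell Ranger 8.0.1, per the submitters' processing notes, on GRCm39, and deposited the counts as whole numbers without normalization. Seurat 5.0.1 is also named there. Barcodes with over 100 UMIs and under 20% mitochondrial UMIs were kept. Members were summed per library and scaled to CPM. The member rule, the lists and the genes were chosen with earlier results of these data known. Genes named are the 8 highest and 8 lowest log2 ratios among genes that reached 200 UMIs in the libraries together and 100 CPM in 1 of them, the highest and lowest of each list, the markers, and the genes compared by the study. Against each set, the 8 most raised genes under these minima were taken, and genes described for a list or a quartile trend were added after their values were seen. CD8 T cells have at least 3 *Cd3* UMIs, 1 *Cd8a* UMI and *Lyz2* under 20 P10k. Intervals of shares are exact binomial and those of ratios exact given the sum of counts. The interval of a difference of shares joins the 2 exact intervals by square-and-add. All cover counting error only. With 1 library per group no test was run. Scrublet's own threshold marked 1 UT and 161 BUP-treated barcodes and was not used. Instead, as an alternative, the top 6% of scores were removed. The calculation was tested on simulated data. Python 3.11.15 and scanpy 1.11.5 were used. Alternatives are given in the closing section.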

Additional observations from a re-analysis of the deposited data

Results flagged for a closer look

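Barcodes removed for their mitochondrial share held further cells that met the rest of the rule, 15 in UT and 4 in BUP-treated tumors. They were not used elsewhere.

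Named genes past 1.5-fold in members, with the opposite direction in *C1q*-high cells and both counting intervals away from 0, were *Mmp12* and the hemoglobin genes. *Mmp12* had a log2 ratio of -0.85 in members and 0.19 in *C1q*-high cells. Its ratio was -0.86 in interferon-high cells, -0.44 in cells low in the selecting genes and 1.47 in cells high in *S100a8* and *S100a9*. The ratios in *C1q*-high cells were -1.31 for *Hbb-bs*, -1.12 for *Hba-a1* and -1.22 for *Hba-a2*, against 1.75, 2.13 and 2.25 in members. These differences between cell sets were not tested, since each group has 1 library.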

How the results depend on the processing

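No paired analysis was possible because each group has 1 library. The member share of kept barcodes was lower and the share of gated cells higher in BUP-treated tumors under all 5 alternatives run. The difference in kept cells was -4.37 points with the 4 genes at P10k 10 or more and -6.72 points with the rule on thinned cells. At least 1.5-fold higher were 33 genes with thinned members and 20 with a minimum of 1000 UMIs, against 84. At least 1.5-fold lower were 64 and 26 under the same settings, against 149, and these settings admit 2513 and 2293 genes. Leaving out, for each gene, the 5 cells with most of its UMIs, chosen after seeing the data, gave 63 higher and 248 lower, and it removes a larger fraction of the 646 BUP-treated than of the 1080 UT members. It turned *Hbb-bs* to -0.87 and *Hba-a2* to -0.40, and moved *Gzmf* to -1.98. Scaling by the median ratio gave 114 higher and 100 lower. The other alternatives kept both counts within 1.5 times. With thinned members, 61 of 66 named genes kept the sign of their log2 ratio and 33 moved outside their counting interval. Without the 5 richest cells these were 63 and 22, with the rule on thinned cells 64 and 20. With each cell weighted equally they were 66 and 19. Under the rest, 65 or 66 kept the sign and at most 11 moved. List medians kept their sign in 17 of 21 lists with thinned members and in at least 18 under every other setting. Between 9 and 12 of the measured lists had a median below that of all genes, against 10. Measured lists numbered 21 with thinned members or a minimum of 1000 UMIs and 22 otherwise. With 1 library per group, depth limits genes under 200 UMIs, and differences between mice cannot be told apart from those between groups.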
